A study of Homo sapiens with 8 samples.

Results

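The comparison described here is that of RNA levels in HEK293T cells after 30 min of sodium arsenite with those in control cells, read from the mRNA-seq libraries alone. These are 4 of the 8 samples of the series, 2 libraries from cells given 40 µM sodium arsenite and 2 from control cells given vehicle (0 µM) for the same time, and the other samples are ribo-seq libraries, of which only the control ones were used, to choose transcripts. HEK293T is a human embryonic kidney line that carries the SV40 large T antigen, and no other genetic change is named for either group. The replicates were independent biological replicates by the study's methods, with a 3′ adapter of its own for each number. The RNA was poly(A)+ RNA from the supernatant of detergent lysates, cut into fragments of the length of ribosome footprints.

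Arsenite binds thiols and causes oxidative stress. It is known to activate stress kinases that act on AP-1 and other immediate-early genes, heat shock factor, which induces chaperones, NRF2, which induces antioxidant enzymes, and the eIF2 kinases, which lower translation and raise that of ATF4. In a short treatment, levels of short-lived or quickly induced mRNAs can move further than those of stable mRNAs. RNA level here means all mRNA-seq reads on 1 coding transcript per gene, scaled so that the bulk of mRNAs does not change, and a change is the log2 ratio of arsenite to control.

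The control libraries held 3993302 and 19435912 reads on the chosen transcripts of 19964 genes (replicates 1 and 2), and the arsenite libraries 4018641 and 21724986. Replicate 1 was thus the shallower one, and the SD of the log2 change over 9926 genes with a mean of at least 100 reads was 0.22 in replicate 1 and 0.13 in replicate 2. The libraries of replicate 1 had 69.0% and 69.6% of their reads in the CDS, against 58.5% and 58.8% in replicate 2. All 8 HEK293T marker genes had reads in every library, with sums of 894 to 1045 counts per 1000000 (CPM, here of all reads on the chosen transcripts), and 2 of them, VIM and IGF2BP1, were called higher. Liver and blood markers summed to at most 6.01 CPM. Noradrenergic neuronal markers summed to 29.8 and 31.6 CPM in the control and arsenite libraries of replicate 1, and to 40.7 and 54.8 in those of replicate 2. Levels of single genes are given as CPM after edgeR's TMM scaling of the library.

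Most mRNAs changed little. Of 12599 genes with a mean of at least 10 reads, 475 were called higher in arsenite (3.77% of those tested) and 252 lower (2%) by edgeR's quasi-likelihood test with the replicate as a block, at a Benjamini-Hochberg adjusted p under 0.05. The called changes were small, with a median log2 change of 0.25 for the higher genes and -0.22 for the lower ones. A log2 change of at least 0.5 was reached by 36 of the higher genes, and one of -0.5 or lower by 12 of the lower genes. Among all tested genes, 88.1% lay within 0.25 of no change. Both replicates moved the same way in 468 of the 475 higher genes and in 244 of the 252 lower genes. These replicates also entered the test, so this agreement is a description.

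The number of calls differed widely between methods. With 2 replicates and a block, 1 residual degree of freedom was left per gene. The spread that edgeR used was pooled over genes, with no part estimated for a single gene. DESeq2, which differs in scaling, spread and test and left 9038 genes without an adjusted p, called 80 genes higher and 7 lower, and without the block edgeR called 0 genes, with 28 at an unadjusted p under 0.05. Genes without an adjusted p could not be called by DESeq2. Its low counts for the lists below therefore do not show that the other members were unchanged.

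**Figure D1:**
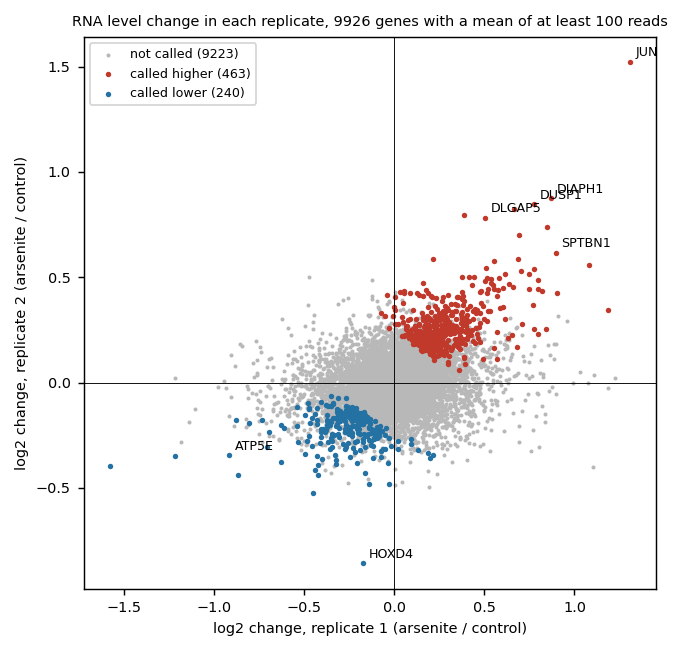
Each point is 1 of 9926 genes with a mean of at least 100 reads, placed by its log2 change (arsenite over control) in replicate 1 (x axis) and replicate 2 (y axis), with red and blue for the 463 genes called higher and the 240 called lower. JUN lies far from all others at the upper right, the other genes form a tilted cloud about 0 that is wider along replicate 1 (SD 0.22) than along replicate 2 (SD 0.13), and across genes the Pearson correlation of the axes is 0.33.

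Calls were more frequent among abundant mRNAs. In the lowest quartile of mean level 0.54% of tested genes were called higher and 0.48% lower, against 9.81% and 4.35% in the highest quartile, which starts at 84.9 CPM. For lists of mostly abundant mRNAs, the number of members in the highest quartile is given beside the calls.

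**Figure D2:**
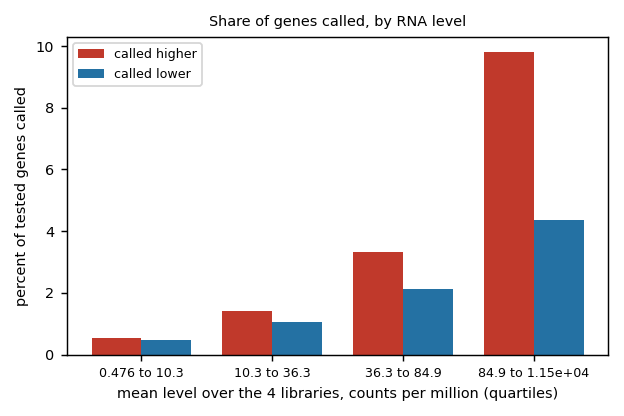
Bars give the percent of tested genes called higher (red) and lower (blue) in each quartile of the mean level over the 4 libraries, in CPM. Both shares rise from quartile to quartile, from 0.54% to 9.81% for higher and from 0.48% to 4.35% for lower.

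JUN, a bZIP protein that forms AP-1 with FOS, had the largest change among called genes with at least 20 reads in every library. It was at 192 and 199.9 CPM in control and 475 and 574 CPM in arsenite (replicates 1 and 2), a log2 change of 1.45 (SE 0.053, adjusted p = 2.10e-154), which is 2.72-fold higher. Both arsenite libraries lay far above both controls. Of the list of immediate-early genes, which respond to signals without new protein synthesis, 56 were tested, 7 were called higher and 1 lower (12.5% and 1.79%, beside 3.77% and 2% over all genes), with a median log2 change of 0.076 against -0.0076 over all genes tested. Under DESeq2 1 gene of the list was called higher and 0 lower. EGR1, a zinc finger transcription factor, was low, at 7 and 89 reads in the controls and 23 and 204 with arsenite, and rose by a log2 change of 1.10 (SE 0.18, adjusted p = 8.37e-08, 1.65 in replicate 1 alone). DUSP1, a phosphatase that switches off MAP kinases, was at 16.2 and 19.3 CPM in control and 27.9 and 34.8 CPM in arsenite, a rise of 0.84 (SE 0.10, adjusted p = 2.48e-15). ATF3, a stress-induced bZIP repressor, rose by 0.37 (SE 0.070, adjusted p = 1.48e-05, 0.21 in replicate 1 alone) and RHOB, a short-lived small GTPase, by 0.33 (SE 0.059, adjusted p = 3.17e-06). The gene of the list that fell was ID2, an inhibitor of basic helix-loop-helix factors, with -0.31 (SE 0.054, adjusted p = 1.56e-06). FOS, named after its values were seen because it is the usual partner of JUN, was at 7 and 49 reads in the controls and 10 and 90 with arsenite and was not called, with 0.69 (SE 0.25, adjusted p = 0.0726).

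The promoters of EGR1 and DUSP1 are shown because each holds a site that signal-activated factors are known to use. They come from RefSeq, build GRCh38.p14, read 5′ to 3′ along the gene, and capitals mark the CArG box that serum response factor binds in EGR1 and the cyclic AMP response element (CRE, TGACGTCA) in DUSP1.
EGR1, chr5:138465366-138465391, plus strand: cggtcctgCCATATTAGGgcttcctg
EGR1, chr5:138465388-138465413, plus strand: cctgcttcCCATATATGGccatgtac
DUSP1, chr5:172771304-172771329, minus strand: cagggcgggTGACGTCAccgccccgt
In the window from 250 bases before to 50 after the start, the promoter of JUN held neither of these motifs on either strand, which says only that they are not in that window. A CArG box was found in 1.02% of the 10323 tested genes with a listed promoter, in 1.52% of those called higher and in 1.43% of those called lower. A CRE was found in 3.36% of all, 4.56% of higher and 2.86% of lower genes.

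**Figure D3:**
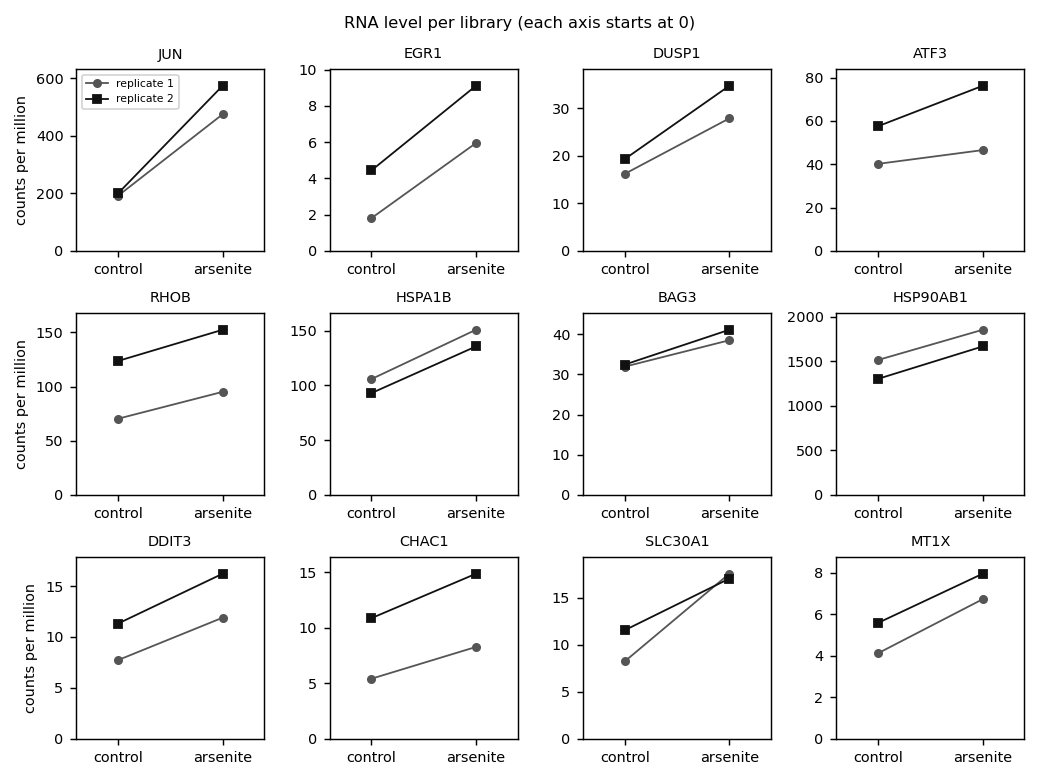
RNA levels of 12 stress genes in CPM in the control and arsenite library of replicate 1 (circles) and replicate 2 (squares), with each y axis starting at 0. Both lines rise in each of the 12, from a log2 change of 0.32 for HSP90AB1 to 1.45 for JUN.

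Cytosolic chaperones, which refold damaged proteins, gave 6 rises and no fall. Of 26 tested genes 6 were called higher (23.1%) and 0 lower, 21 had a change above 0 in both replicates, and the median log2 change was 0.11. In the highest quartile of level, where 18 of the 26 lay, 9.81% of all genes were higher and 4.35% lower. HSPA1B, an inducible HSP70, was at 106 and 93.0 CPM in control and 151 and 136 CPM in arsenite, a rise of 0.54 (SE 0.058, adjusted p = 4.09e-17). Only reads that tell it from its near-identical paralog were counted, so its level is a part of the whole. HSP90AB1, the constitutive cytosolic HSP90, rose from 1514 and 1302 CPM to 1852 and 1665 CPM, a log2 change of 0.32 (SE 0.048). The co-chaperone BAG3 rose by 0.33 (SE 0.083) and the HSP90 co-chaperone FKBP4 by 0.17 (SE 0.051). Under DESeq2 2 genes of the list were called.

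Metal response genes were few and low. Of the 12 listed genes in the files 5 passed the filter, and 2 of those were called higher (40%, beside 3.77% over all genes) and 0 lower. Under DESeq2 0 genes of the list were called, and members that it left without an adjusted p could not be. SLC30A1, which exports zinc from the cell, was at 32 and 232 reads in the controls and 68 and 382 with arsenite, a log2 change of 0.65 (SE 0.12, adjusted p = 1.08e-05, 1.08 in replicate 1 alone). MT1X, a metallothionein, was at 16 and 112 reads in the controls and 26 and 178 with arsenite, a change of 0.54 (SE 0.17, adjusted p = 0.0304). Both are known as targets of the metal-responsive factor MTF1, whose response element (TGCACNC or TGCGCNC) is marked in these promoter windows from the same source.
SLC30A1, chr1:211579194-211579219, minus strand: gggggttccGAGTGCAaagcaaagtt
MT1X, chr16:56682339-56682364, plus strand: acgggttgcTGCACCCggcccaggat
MT1X, chr16:56682383-56682408, plus strand: agcaggggcGGGTGCAaggacgaggc
This short element is common. On either strand it was in 39.8% of all listed promoters, in 40% of those of higher genes and in 38.1% of those of lower genes.

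Targets of ATF4, the factor whose translation rises when eIF2 is phosphorylated, gave more rises than any other of the stress lists. Of 36 tested genes 14 were called higher and 1 lower (38.9% and 2.78%, beside 9.81% and 4.35% in the highest quartile, where 24 of the 36 lay), with a median log2 change of 0.11. DDIT3, the pro-apoptotic factor CHOP, was at 30 and 227 reads in the controls and 46 and 363 with arsenite, a rise of 0.53 (SE 0.12, adjusted p = 0.00116). CHAC1, which degrades glutathione, was at 21 and 218 reads in the controls and 32 and 333 with arsenite, a rise of 0.47 (SE 0.13, adjusted p = 0.0103). The proline synthesis enzyme ALDH18A1 rose by 0.38 (SE 0.053) and SLC3A2, the shared chain of amino acid transporters, by 0.34 (SE 0.053). The lower gene was PYCR1, which acts after ALDH18A1 in proline synthesis, with -0.16 (SE 0.054, adjusted p = 0.0451). Of 22 aminoacyl-tRNA synthetases, several of which are also on the ATF4 list, 6 were higher and 0 lower, 21 had a log2 change above 0, and 20 were in the highest quartile. MARS, for methionine, rose by 0.29 (SE 0.052) and AARS, for alanine, by 0.26 (SE 0.052). Under DESeq2 6 genes of the ATF4 list and 1 synthetase were called.

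The AP-1 site (TGANTCA) is shown in the promoters of DDIT3, SLC3A2 and BAG3, from the same source and with the site in capitals.
DDIT3, chr12:57520739-57520764, minus strand: gcgcgcgcaTGACTCAcccacctcct
SLC3A2, chr11:62881653-62881678, plus strand: gagggtgggTGACTCAgcgtcctcct
BAG3, chr10:119651352-119651377, plus strand: tatagccgaTGACTCAgggcggagct
It was in 4.08% of all listed promoters, in 4.56% of higher genes and in 1.9% of lower genes. The NRF2 element (TGACNNNGC), which overlaps the AP-1 site in SLC3A2, was in 14.8%, 20.8% and 13.8%. The heat shock element, searched as 3 alternating units, was in 27 of all promoters, in 4 of those of higher genes and in 0 of those of lower genes. The shares are descriptions, and no factor's binding was measured.

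Of 25 NRF2 and antioxidant genes 4 were higher and 1 lower (16% and 4%), and the median was 0.019. Over all genes 3.77% were higher and 2% lower, and in the highest quartile, where 11 of the 25 lay, 9.81% and 4.35%. The higher ones included EPHX1, a detoxifying epoxide hydrolase, with 0.38 (SE 0.079), and TKT and PGD of the pentose phosphate pathway, with 0.36 and 0.25. FTL, the ferritin light chain, decreased by 0.22 on the log2 scale. Of 19 ER chaperone and unfolded protein response genes, 10 of them in the highest quartile, 4 were higher (21.1%) and 0 lower, with a median of 0.12. The higher ones included the lectin chaperones CANX at 0.29 (SE 0.049) and CALR at 0.20 (SE 0.049). Under DESeq2 1 gene of the NRF2 list and 1 of the ER list were called. Of 23 p53 targets, 6 of them in the highest quartile, 0 were higher and 1 lower (4.35%), SESN1, with -0.25 (SE 0.077). None of 9 tested NF-kB targets was called, and the abundant NFKB1 and NFKBIA were at 0.0076 (SE 0.075) and -0.062 (SE 0.10).

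A large group of rising mRNAs encodes the actin cortex and cell adhesion. The list was drawn up after the largest changes were seen, so its counts only describe it. Of its 140 tested genes 40 were called higher and 3 lower (28.6% and 2.14%, beside 3.77% and 2% over all genes), and 58 were in the highest quartile of level. The list took 1.60% and 1.47% of control reads and 1.77% and 1.59% of arsenite reads. The formin DIAPH1, which nucleates and extends actin filaments, had the largest rise. It was at 80.9 and 76.9 CPM in control and 148 and 141 CPM in arsenite, a log2 change of 0.88 (SE 0.060, adjusted p = 4.82e-44). Both replicates gave the same size of change, 0.87 and 0.88. SPTBN1, a spectrin of the membrane skeleton, was at 81.9 and 43.6 CPM in control and 152 and 66.8 CPM in arsenite, a rise of 0.71 (SE 0.066). MYH9, the heavy chain of non-muscle myosin IIA, was at 262 and 142 CPM in control and 427 and 205 CPM in arsenite, a rise of 0.60 (SE 0.052). The replicates differ in level for both genes, and within each replicate arsenite was higher. IQGAP1, a scaffold that links the cortex to signalling, rose by 0.57 (SE 0.061) and SVIL, a membrane-associated actin and myosin binder, by 0.59 (SE 0.18). Under DESeq2 15 genes of this list were called higher. Of 14 tubulin and actin genes, 7 of them in the highest quartile, 2 were called higher (14.3%). In that quartile 9.81% of all genes were called higher. All 14 had a log2 change above 0, with ACTB at 0.22 (SE 0.050) and TUBB at 0.17 (SE 0.048).

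Glycolytic enzymes gave 8 rises and no fall. Glycolysis had the largest share of higher genes among the lists with at least 10 tested, 8 of 18 (44.4%) with 0 lower, a median log2 change of 0.16, and 14 of 18 genes in the highest quartile. In that quartile 9.81% of all genes were higher and 4.35% lower. The list took 0.964% and 0.909% of control reads and 1.07% and 1.02% of arsenite reads. GPI, which makes fructose 6-phosphate, was at 326 and 257 CPM in control and 423 and 339 CPM in arsenite, a rise of 0.39 (SE 0.051), and PKM, the last step to pyruvate, at 1461 and 871 CPM in control and 1794 and 1163 CPM in arsenite, a rise of 0.36 (SE 0.048). HK1, ENO1 and the glucose transporter SLC2A1 rose by 0.33, 0.30 and 0.30. Under DESeq2 5 genes of the list were called. In sterol synthesis 1 of 24 was called higher (4.17%, beside 3.77% over all genes), DHCR7, with 0.33 (SE 0.055, 0.16 in replicate 1 alone).

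Among the largest rises outside these lists were AASS, which starts lysine degradation, at 24.5 and 35.3 CPM in control and 44.2 and 58.8 CPM in arsenite and a log2 change of 0.76 (SE 0.078). GLDC, of the glycine cleavage system, rose by 0.70 (SE 0.078). The nucleolar protein gene DNTTIP2 rose by 0.68 (SE 0.066, 0.39 in replicate 1 alone) and the drug efflux pump ABCB1 by 0.58 (SE 0.15).

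Of 38 genes of G2 and mitosis 11 were higher and 1 lower (28.9% and 2.63%). In the highest quartile of level, where 29 of the 38 lay, 9.81% of all genes were higher and 4.35% lower. Under DESeq2 3 genes of the list were called higher. DLGAP5, a spindle protein, was at 59.5 and 54.2 CPM in control and 84.5 and 93.3 CPM in arsenite, a log2 change of 0.72 (SE 0.067). TPX2, which activates Aurora A kinase on the spindle, was at 156 and 137 CPM in control and 251 and 206 CPM in arsenite, a change of 0.62 (SE 0.054). ANLN, which links actin to the cleavage furrow, rose by 0.47 (SE 0.059), CDCA2 by 0.37 and MKI67, the proliferation marker, by 0.34. Of 34 genes of G1/S and replication, 27 of them in the highest quartile, 5 were higher and 1 lower (14.7% and 2.94%), and 1 was higher under DESeq2. POLA1, MCM2, CHAF1B and RRM1 rose by 0.28, 0.26, 0.25 (0.16 in replicate 1 alone) and 0.16, and cyclin E, CCNE1, fell by 0.28, with -0.050 in replicate 1 alone. None of 34 kinesin genes was called, with the abundant KIF5B at 0.090 (SE 0.052) and KIF11 at 0.057 (SE 0.052).

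Among RNA-binding and translation genes, calls are set beside the highest quartile of level, where 9.81% of all genes were called higher. Of 19 hnRNP genes (16 in that quartile) 5 were higher (26.3%), among them HNRNPL with 0.25 (SE 0.049) and HNRNPU with 0.25 (SE 0.048), and of 22 SR and splicing kinase genes (16 in it) 3 were (13.6%), led by SRRM1 with 0.33 (SE 0.052). Of 51 RNA decay and poly(A) factors (30 in it) 5 were higher (9.8%), a share no larger than that quartile's, led by CNOT4, a ubiquitin ligase of the CCR4-NOT group, with 0.47 (SE 0.077), and KHSRP, which binds AU-rich elements, with 0.30 (SE 0.050). None was lower in these lists. Of 63 translation factors (43 in it) 5 were higher (7.94%, below that quartile's share) and 0 lower, EEF1A2, EEF2, EIF3A, EIF4G1 and EIF5B, with EEF2, the translocase, at 2509 and 2085 CPM in control and 3398 and 2638 CPM in arsenite and 0.39 (SE 0.047). The median of that list was 0.016, near that of all genes. Of 47 ubiquitin-specific proteases (19 in it) 5 were higher (10.6%), led by USP5 with 0.33 (SE 0.061). Of 404 ZNF genes 12 were higher and 1 lower, 2.97% and 0.25%, and of 236 solute carriers 7 and 6, 2.97% and 2.54%, beside 3.77% and 2% over all genes. The called ZNF genes with the largest change were ZNF684 and ZNF16, with 0.52 (SE 0.16) and 0.51 (SE 0.14, 0.90 in replicate 1 alone). Among the carriers the amino acid transporters SLC1A5 and SLC7A1 rose by 0.33 and 0.32, and SLC39A11 fell by 0.37. Under DESeq2 3 hnRNP, 1 SR and splicing kinase, 1 RNA decay, 3 translation factor and 3 carrier genes were called higher. It called 0 ubiquitin-specific proteases and 0 ZNF genes, and no gene of these lists lower.

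**Figure D4:**
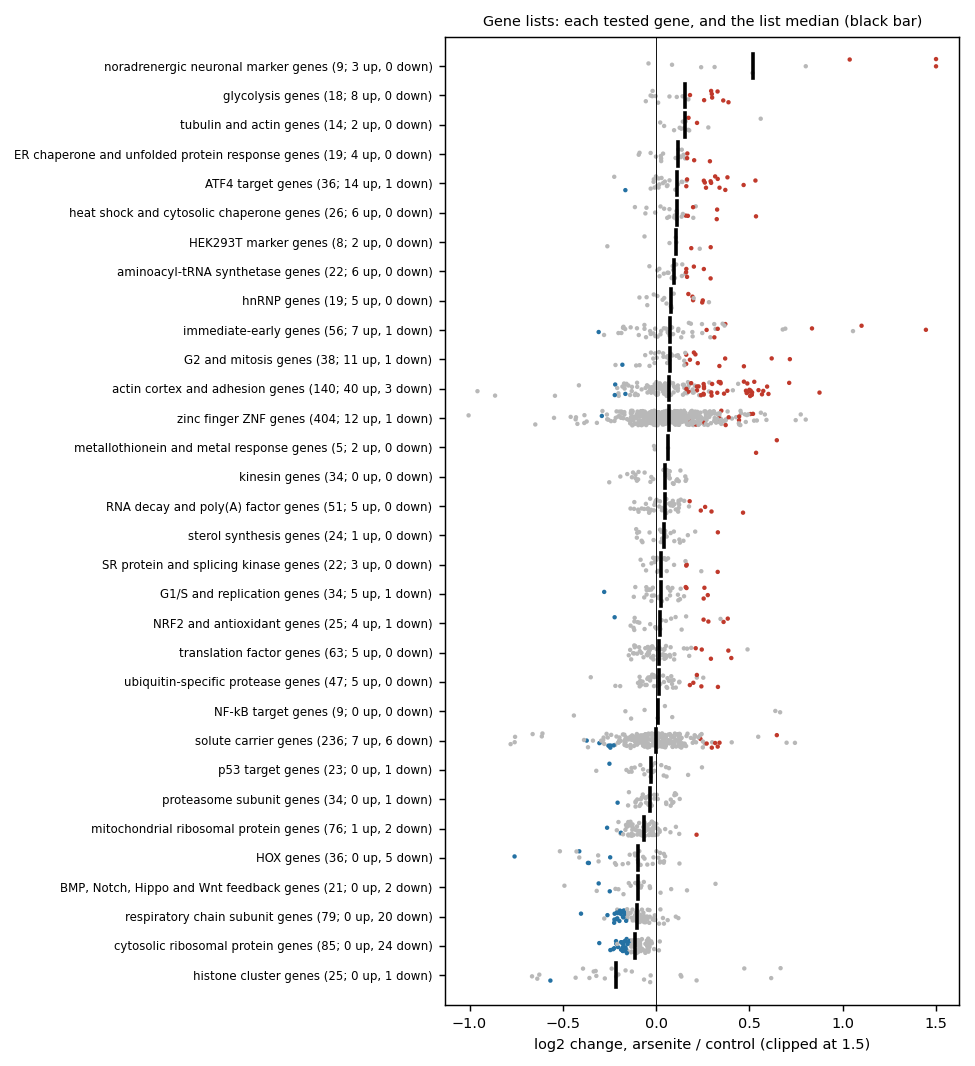
Each row is a gene list with at least 5 tested genes, each point a gene at its log2 change (red called higher, blue called lower, grey not called), and the black bar the median, with the numbers tested and called in brackets and changes above 1.5 drawn at 1.5. The medians of the chaperone, ATF4, glycolysis, actin and mitosis lists lie right of 0, and those of cytosolic ribosomal proteins (-0.12), respiratory chain subunits (-0.10) and histones (-0.21) left of it.

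The falling genes included many mRNAs of cytosolic ribosomal proteins, the structural proteins of the ribosome. Of 85 tested genes 24 were called lower (28.2%) and 0 higher, 83 had a log2 change below 0, 56 had a change below 0 in both replicates, and the median was -0.12. Of the 85, 79 were in the highest quartile, where 4.35% of genes were called lower. The list took 8.84% and 10.2% of control reads and 8.28% and 9.17% of arsenite reads. RPS21 was at 1321 and 695 CPM in control and 1034 and 579.6 CPM in arsenite, a change of -0.30 (SE 0.049). RPL41, which encodes the shortest ribosomal protein, was at 4015 and 2624 CPM in control and 3233 and 2315 CPM in arsenite, a change of -0.25 (SE 0.047). RPL10A and RPS7 changed by -0.23 and -0.22. In all 4 each arsenite library lay below the control of its replicate. The median was -0.046 in replicate 1 and -0.16 in replicate 2. Under DESeq2 6 of its genes were called lower.

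Nuclear-encoded subunits of the respiratory chain and ATP synthase gave a similar count. Of 79 tested genes 20 were called lower (25.3%) and 0 higher, 72 had a log2 change below 0, and the median was -0.10, with -0.083 in replicate 1 and -0.13 in replicate 2. Of the 79, 63 were in the highest quartile of level, where 4.35% of genes were called lower. The list took 1.43% and 1.53% of control reads and 1.33% and 1.43% of arsenite reads. The largest fall was that of ATP5E, an ATP synthase subunit, at 15.7 and 31.3 CPM in control and 8.27 and 24.6 CPM in arsenite, a change of -0.40 (SE 0.10, adjusted p = 0.00191, -0.91 in replicate 1 alone). ATP5E had 61 and 628 reads in the controls and 32 and 552 with arsenite, with 0 in the CDS of any library. Its 3′ UTR held 9 and 52 of them in the controls and 2 and 49 with arsenite, so its value rests mostly on leader reads. COX7B, of cytochrome oxidase, was at 277 and 283 CPM in control and 213 and 246 CPM in arsenite, a change of -0.26 (SE 0.052). NDUFA1, NDUFA3 and NDUFB9, of complex I, changed by -0.22 (-0.34 in replicate 1 alone), -0.22 and -0.22. Under DESeq2 0 genes of this list were called, and 2 were lower in CDS reads alone and 0 in 3′ UTR reads alone. Of 76 mitochondrial ribosomal proteins 2 were lower (2.63%, beside 2% over all genes), MRPS18C and MRPL20. In that list 1 was higher (1.32%, beside 3.77%), MRPL2, and the median was -0.064. Of 34 proteasome subunits, 31 of them in the highest quartile, 1 was lower (2.94%, below that quartile's 4.35%), PSMB4, with -0.21 (SE 0.050).

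Developmental regulators were among the larger falls. Of 36 HOX genes, which set position along the body axis, 5 were called lower and 0 higher (13.9% lower, beside 2% over all genes), with a median of -0.10. HOXD4 fell most, at 8.76 and 13.5 CPM in control and 7.75 and 7.41 CPM in arsenite, a log2 change of -0.76 (SE 0.14, adjusted p = 6.40e-06, -0.17 in replicate 1 alone). In replicate 2 alone it was -0.86. DESeq2, CDS reads alone and 3′ UTR reads alone each called 0 HOX genes. DESeq2 could not call any HOX gene that it left without an adjusted p. HOXB13, HOXA9, HOXB2 and HOXA11 changed by -0.41 (-0.14 in replicate 1 alone), -0.37 (-0.70 in replicate 1 alone), -0.36 and -0.25 (-0.41 in replicate 1 alone). Of 21 feedback genes of the BMP, Notch, Hippo and Wnt pathways 0 were higher and 2 lower (9.52%). The lower ones were ID2 and the Notch inhibitor NRARP (-0.25, SE 0.063, -0.019 in replicate 1 alone), and 13 of the 21 had a change below 0 in both replicates. Other large falls were those of ARHGAP27 (-0.52), JDP2, a bZIP repressor that binds JUN (-0.50, -0.87 in replicate 1 alone), PAM16, of mitochondrial protein import (-0.49, -0.92 in replicate 1 alone), KIFC2 (-0.43, -0.029 in replicate 1 alone), ECE2 (-0.42), ADAP1 (-0.42), SH2D5 (-0.40), ANKRD9 (-0.38), SHANK3 (-0.38, -0.16 in replicate 1 alone), GXYLT2 (-0.38, -0.80 in replicate 1 alone and -0.19 in replicate 2 alone) and LOC101060412 (-0.53). JDP2 was at 37 and 181 reads in the controls and 20 and 150 with arsenite and ARHGAP27 at 29 and 214 reads in the controls and 21 and 166 with arsenite, so these falls rest on few reads in replicate 1. PAM16 had at most 1 read in the CDS or the 3′ UTR of any library, and LOC101060412 had 0 in both regions. The falls of PAM16 and LOC101060412 thus rest on leader reads, and neither has a CDS or 3′ UTR value. ECE2 is the symbol in the deposited counts, and the RefSeq source of the promoters lists the transcript counted under it as EEF1AKMT4.

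Histone cluster genes had the lowest median of all lists, -0.21 over 25 tested genes. Of these 1 was called lower (4%, beside 2% over all genes) and 0 higher. Most of their mRNAs lack a poly(A) tail and the libraries were made from poly(A)+ RNA, and the list's share of reads was 0.0395% in control replicate 1 and 0.0124% in control replicate 2, further apart than arsenite and control within a replicate. HIST1H4B, the gene called, was at 114 and 43 reads in the controls and 80 and 29 with arsenite, and its change was -0.57 (SE 0.18).

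Grouping genes by the letters of their symbols gave 54 families of at least 20 tested genes. The ribosomal families RPS and RPL had 13 of 42 and 10 of 48 genes lower and 0 higher, and COX had 5 of 21 lower. POLR, subunits of the RNA polymerases, had 4 of 26 lower and 1 higher. At the other end NUP, nuclear pore proteins, had 7 of 20 higher and 0 lower with a median of 0.11, and SEC, secretory pathway proteins, had 4 of 24 higher and 1 lower. Over all tested genes 3.77% were higher and 2% lower, and these families were picked for having many calls.

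Genes of noradrenergic neurons stood out in the arsenite library of replicate 2. NNAT was at 0 and 2 reads in the controls and 0 and 44 with arsenite, TH, which makes catecholamine precursors, at 0 and 5 reads in the controls and 0 and 40 with arsenite, and PHOX2A, below the filter, at 0 and 3 reads in the controls and 0 and 35 with arsenite. In replicate 1 these 3 genes had no reads in either library. The test called NNAT and TH higher, which rests on replicate 2 alone, and also PRPH, at 2 and 30 reads in the controls and 5 and 68 with arsenite and higher in both replicates. The other markers of this list that passed the filter did not pass the test. Of the 16 markers 8 had no read in control replicate 1 and 7 in arsenite replicate 1, and 0 were without reads in replicate 2. Of the other marker lists, fibroblast markers summed to 11.3 and 10.8 CPM in control and 13.4 and 13.4 in arsenite, and liver markers to at most 1.18. The part of such transcripts in the other changes was not tested.

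CDS and 3′ UTR reads are separate reads of the same libraries, so they give a second reading of each change. Fitted alone, CDS reads of 11755 genes gave 212 higher (1.8%) and 42 lower (0.357%) calls, and 3′ UTR reads of 11077 genes 45 higher (0.406%) and 8 lower (0.0722%). Of the 212 genes higher in CDS reads 40 (18.9%) were also higher in 3′ UTR reads, which is 88.9% of the 45. Of the lower genes 1 was shared, 2.38% of the 42 and 12.5% of the 8. The fits of the regions use fewer reads, and the median SE of a log2 change was 0.08 for the whole transcript, 0.10 for CDS and 0.13 for 3′ UTR reads. SE and p-value also related differently between the fits. By edgeR's test JUN had an adjusted p of 5.88e-14 in CDS reads (1.51, SE 0.063) and of 3.56e-80 in 3′ UTR reads (1.43, SE 0.073). The part of this in the numbers of calls was not tested.

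Called genes had mostly the same sign in both regions. Of the 475 higher genes 465 could be fitted in both regions, and 454 of these had a log2 change above 0 in both, with a median of 0.26 in CDS and 0.24 in 3′ UTR reads. Of the 252 lower genes 238 could be fitted, and 228 were below 0 in both, with medians of -0.22 and -0.22. Genes were called on the sum of these reads, so the counts describe the called genes. Over 6408 genes with a mean of at least 100 reads in each region, the Pearson correlation of the CDS and 3′ UTR change was 0.59 and the Spearman correlation 0.54, across genes that share libraries and are not independent replicates. Within replicate 2 the Pearson correlation was 0.59 and within replicate 1 it was 0.13. Between the CDS change of replicate 1 and the 3′ UTR change of replicate 2, which share no library, it was 0.30, and for the reverse pair 0.18.

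**Figure D5:**
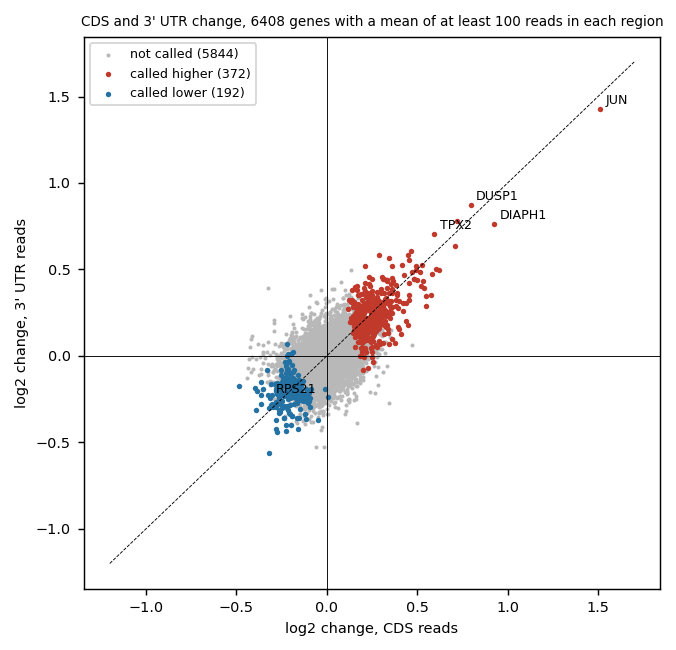
Each point is 1 of 6408 genes with a mean of at least 100 reads in each region, placed by its log2 change in CDS reads (x axis) and in 3′ UTR reads (y axis), with 372 called higher in red, 192 called lower in blue and the line of equal change dashed. JUN lies close to the line near 1.5, and most called genes have the same sign in both regions. The Pearson correlation of the axes was 0.68 over the genes called higher and 0.023 over those called lower.

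JUN changed by 1.51 (SE 0.063) in CDS reads and 1.43 (SE 0.073) in 3′ UTR reads, and the difference of 3′ UTR and CDS change was -0.069 (SE 0.10). DUSP1 changed by 0.80 (SE 0.13) in CDS reads and 0.87 (SE 0.14) in 3′ UTR reads. DIAPH1 changed by 0.93 (SE 0.068) in CDS reads and 0.76 (SE 0.10) in 3′ UTR reads. HSPA1B changed by 0.42 (SE 0.17) in CDS reads and 0.49 (SE 0.078) in 3′ UTR reads. In these genes the difference between the regions was under 2 of its SE. ID2 changed by -0.32 (SE 0.071) in CDS reads and -0.30 (SE 0.077) in 3′ UTR reads, RPS21 by -0.31 (SE 0.049) in CDS reads and -0.24 (SE 0.090) in 3′ UTR reads and COX7B by -0.28 (SE 0.061) in CDS reads and -0.29 (SE 0.10) in 3′ UTR reads, all below 0 in both regions. RPL10A and NDUFA3, lower over the whole transcript, had 3′ UTR changes of 0.17 (SE 0.25) and 0.016 (SE 0.29). By class, the median change in CDS and 3′ UTR reads was 0.12 and 0.071 for chaperones, 0.12 and 0.16 for ATF4 targets, 0.15 and 0.17 for glycolysis, -0.11 and -0.14 for cytosolic ribosomal proteins, and -0.11 and -0.070 for the respiratory chain.

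The difference between the regions was tested itself, as an interaction of region and treatment in 1 edgeR fit over 10644 genes. It called 0 genes higher and 0 lower in the 3′ UTR than in the CDS (0%), with 298 genes at an unadjusted p under 0.05 and a lowest adjusted p of 0.999. The median SE of this difference was 0.17, and differences larger than that were not called either, so a lack of calls does not show that the regions changed alike. Among 521 called genes with at least 20 reads in each region of each library, 512 had the same sign in both regions and 501 differed by less than 0.25. The largest differences among them were those of NELL2, with 0.25 (SE 0.11) in CDS and 0.65 (SE 0.20) in 3′ UTR reads, and ZNF12, with 0.62 (SE 0.15) and 0.25 (SE 0.13), and neither was called. These genes were named after their values were seen.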

How the data were processed

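RNA levels were compared between 2 arsenite and 2 control mRNA-seq libraries of HEK293T cells. The deposited values are counts of reads per RefSeq transcript, without normalization, which the authors made after trimming adapters with Cutadapt and aligning to RefSeq transcripts with Bowtie 1.0.0. Reads that fitted several genes, or several places of a transcript, had been discarded by them. The deposited counts are also given by region of each coding transcript, with the leader, the CDS and the 3′ UTR apart. The runs of replicate 2 were added together by the authors.

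Each gene was represented by 1 coding transcript, that with the highest sum of ribo-seq reads in its CDS in the control libraries, with ties going to the one with more control mRNA-seq reads. Genes averaging 10 counts or more over the 4 libraries were fitted with edgeR 4.0.16 (R 4.3.3, quasi-likelihood test, default settings). The fit had TMM scaling, the replicate as a block and Benjamini-Hochberg adjustment at 0.05. Its spread was pooled over genes, with no part estimated for a single gene. The SE is the size of the log2 change divided by the square root of F, and for changes in a single replicate 0.5 was added as prior count. Regions were compared as an interaction of region and treatment with a term for each library. The fits were also run on simulated counts, drawn with the same spread for all genes and no replicate effect on genes. That run therefore cannot check the pooling of spread in the real libraries. Alternatives were DESeq2 1.42.0, other scalings, filters, transcripts and regions, no block, and leaving out each replicate. Promoters are from RefSeq (GRCh38.p14, first start listed), matched by transcript accession or symbol for 10323 of 12599 genes. Summaries used numpy 2.4.6 and pandas 2.3.3 and figures matplotlib 3.10.9 (Python 3.11.15).

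The block follows the replicate numbers in the labels, and by the methods each number has its own 3′ adapter. Same-numbered libraries deviated together from their group means, with a correlation of 0.89. Depth ranged from 3993302 to 21724986 reads per library. Reads of PCR products without molecular identifiers are not independent molecules. In the whole-transcript fit, p-values cover a spread between these replicates that was pooled over genes, and not the spread of each gene. With 2 libraries per group, no exact test of a single value can reach the usual threshold.

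Gene lists, members and tests were chosen with earlier results of these data known, and the list of actin cortex and adhesion genes after the largest changes were seen. Named genes are the 15 largest rises and falls among called genes with the same sign in both replicates and at least 20 counts in every library, up to 5 called genes of each list (the 2 most abundant where none was called), and cell type markers with at least 10 counts in a library. Some genes that this rule names are not reported here.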

Additional observations from a re-analysis of the deposited data

How the results depend on the processing

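The number of called genes, 727 in all (475 higher, 252 lower), changed by over 1.5 times under 4 alternatives. DESeq2, in which scaling, spread, test and filtering all differ, called 87 genes, 80 higher and 7 lower, all 87 of them among the 727 with the same direction, and gave no adjusted p for 9038 of 12599 genes. Without the replicate block edgeR called 0 genes, 0 higher and 0 lower. CDS reads alone gave 254 calls, 212 higher and 42 lower, and 3′ UTR reads alone 53, with 45 higher and 8 lower. These fits had fewer reads and fewer genes tested, and the same ratio of change to SE did not give the same p-value in each. Upper-quartile scaling gave 655 calls, scaling by library totals 564, no filter 630, a mean of at least 100 counts 819, and the transcript with most mRNA-seq reads 726. A bias-adjusted form of the same test, added after seeing the data, gave 589, and a robust prior, also added, 727.

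Of 148 named genes that were tested, RPL10A and NDUFA3 changed sign, with 0.17 and 0.016 in 3′ UTR reads alone. No other named gene that was called changed sign under any setting run, while some that were not called did. Of 32 lists with at least 5 tested genes, 26 kept the sign of their median in every setting, and the 6 others (NRF2, p53, NF-kB, translation factor, solute carrier and ubiquitin-specific protease genes) had medians between -0.029 and 0.019. Leaving out a replicate leaves 1 library per group, so it gives values and no test. Without replicate 1 the median of the cytosolic ribosomal proteins was -0.16 and without replicate 2 it was -0.046. The difference between CDS and 3′ UTR changes called 0 genes under each of its 4 alternatives, the fit without the replicate block among them. That fit had 0 of 10644 genes at even an unadjusted p under 0.05, so its 0 calls do not bear on the result. Replicate 1 was the shallower one, which limits genes with few reads most.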
